A study of Mus musculus with 3 samples.

Results

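The gelsolin family of actin regulators was followed in mouse bone marrow cultures during 72 h of RANKL, the cytokine that turns macrophage precursors into bone-resorbing osteoclasts. The 7 genes were listed by family, and the family was chosen by the measured signal of scinderin, which was known to climb on these 3 arrays: Scin (scinderin, also called adseverin), Gsn (gelsolin), Capg, Flii (flightless I), Svil (supervillin), Vil1 (villin) and Avil (advillin). Every probe set that names 1 gene was used, which gave 15 probe sets for these 7 genes among 20380 probe sets for 12393 genes in all. Marrow of C57/BL6 mice was cultured for 3 days in human M-CSF (50 ng/ml), the growth factor of macrophages. Human RANKL (150 ng/ml) was then added, and cultures were harvested at 0 h (labelled precursor), 24 h (differentiating precursor) or 72 h (osteoclast), with 1 Affymetrix array per time. No replicate, no sex or age of the mice and no culture held for 24 or 72 h without RANKL was given, so RANKL and time in culture cannot be told apart. Whether marrow was pooled over animals is not given in the sources used here.

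Proteins of this family are built from repeats of a gelsolin domain that grips actin. Calcium opens most of them, after which they sever actin filaments or cap the fast-growing (barbed) end, and the membrane lipid PIP2 pulls them off again. Osteoclasts hold on to bone through a ring of podosomes, short actin columns that are constantly taken apart and rebuilt, and gelsolin is a known podosome component in these cells. Scinderin severs filaments in secretory cells, Capg caps without severing and is abundant in macrophages, and flightless I joins a leucine-rich repeat domain to the gelsolin repeats. Supervillin ties actin and myosin II to membranes, villin bundles the microvilli of intestinal epithelium, and advillin is known from sensory neurons.

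The promoters of Scin and Capg are shown because these were the members whose signal climbed. Windows of 6 of the 7 genes were taken from the RefSeq table (GRCm38.p6), with 3 starts for Gsn and 1 for each of the others. Svil was left out of the search, which says nothing of what RefSeq holds for it. The 250 bases before the start are printed 5′ to 3′ on the gene's own strand. The Scin window is chr12:40134229-40134478 (minus strand) and the Capg window is chr6:72549397-72549646 (plus strand). Capitals mark matches to any of 6 motifs of osteoclast transcription factors, searched on both strands: GGAAA (NFAT), TGANTCA (AP-1), GAGGAA (PU.1), CACGTG and CATGTG (MITF) and a loose form of the NF-kB site.
Scin promoter: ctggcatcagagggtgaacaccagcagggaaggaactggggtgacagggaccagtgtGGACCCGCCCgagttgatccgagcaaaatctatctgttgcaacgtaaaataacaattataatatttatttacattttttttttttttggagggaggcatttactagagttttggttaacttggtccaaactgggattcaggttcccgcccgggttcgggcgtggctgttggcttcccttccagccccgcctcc
Capg promoter: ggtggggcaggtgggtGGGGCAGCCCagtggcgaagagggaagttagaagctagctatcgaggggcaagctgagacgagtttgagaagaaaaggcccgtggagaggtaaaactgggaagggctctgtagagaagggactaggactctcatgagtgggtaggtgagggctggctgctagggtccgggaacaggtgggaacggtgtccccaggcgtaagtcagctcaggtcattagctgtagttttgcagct

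Each of these 2 windows held 1 match, to the loose NF-kB pattern. That pattern occurred in 45.8% of all 32851 windows of this length, and also in those of Vil1, Flii and 2 of the 3 Gsn starts. The NFAT core was present in 55.6% of all windows, the PU.1 core in 23.3%, the AP-1 site in 6.75% and the MITF boxes in 6.02% (CACGTG) and 12.3% (CATGTG). None of these letters was in the Scin or Capg window. The NFAT core appeared at 2 of the Gsn starts and at the Avil start, and the PU.1 core at 1 Gsn start and at Avil. No matches overlapped in either window. GC made up 49.2% of the Scin window and 57.6% of the Capg window, beside a median of 52.4% over all windows.

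Signals below are deposited MAS5 intensities brought to a common scale by centring each array's log2 values on the median of its gene probe sets. The 0, 24 and 72 h arrays had deposited medians of 36.7, 60.9 and 62.7, a shift against 0 h of 0.73 at 24 h and 0.77 at 72 h in log2 units. A floor was set at the 40th percentile, 29.6 scaled units, and lower values were raised to it before differences were taken. A gene was called higher or lower at a 2-fold difference (1 in log2 units), by its brightest probe set. A single array per time allows neither a replicate check nor a test, and precision is limited by the number of arrays. The stated error is technical, from genes with 2 probe sets: an SD of 0.41 log2 units at 24 h against 0 h (2727 genes), 0.49 at 72 h against 0 h (2702 genes) and 0.36 at 72 h against 24 h (2785 genes). It leaves out differences between cultures and any error shared by all probe sets of an array, such as that of the scaling. The signal ratio of the 3′ to the 5′ control probe set of beta-actin came to 1.59 at 0 h, 1.38 at 24 h and 1.20 at 72 h, and that of Gapdh to 1.19, 0.975 and 0.749, and the part of this drift in the results was not tested.

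Scinderin went from near the floor to a clear signal within a day of RANKL, Capg climbed by a smaller factor, gelsolin and flightless I held their signals within 2-fold, supervillin dropped, and villin and advillin were never above the floor. Of the 7 genes 5 were measured, and their brightest probe sets were above the floor on all 3 arrays. At 24 h against 0 h, 2 of these 5 were called higher (Scin and Capg) and 1 lower (Svil), where 13.2% of all measured genes were called higher, 9.22% lower and 22.4% either way. At 72 h against 0 h the same 2 genes were higher and the same 1 lower, where the shares over all measured genes were 12.5% higher, 12.8% lower and 25.3% either way. Between 72 and 24 h, 0 of 5 were called either way, beside 6.92% higher, 10.0% lower and 16.9% either way over all genes. The median log2 difference of the 5 genes was 0.18 at 24 h and 0.34 at 72 h against 0 h, and 0.16 at 72 h against 24 h. Over all measured genes these medians were 0.12, -0.01 and -0.14. The genes were listed with such values in view, so these counts describe the family and test nothing.

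**Figure D1:**
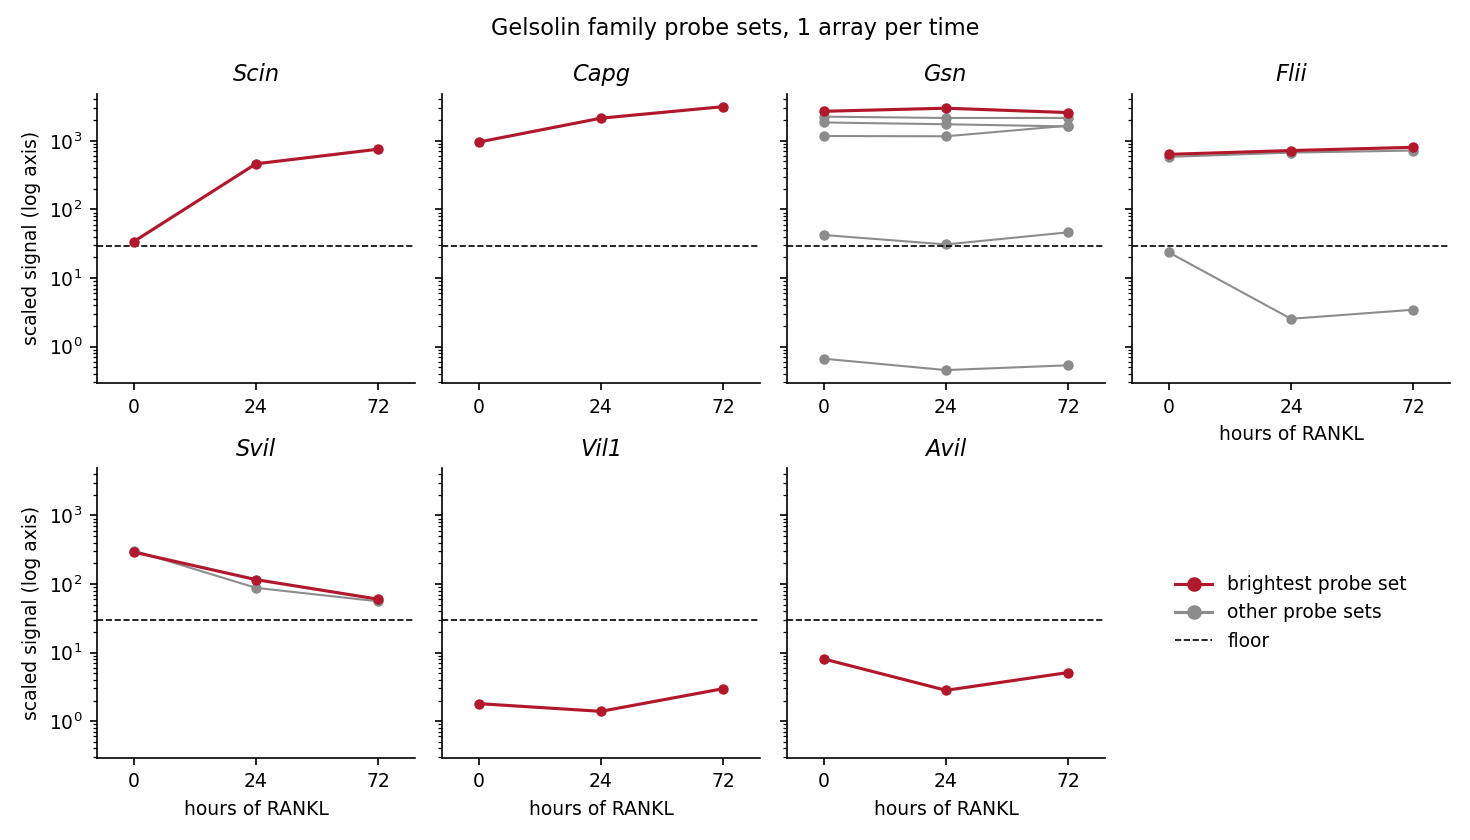
Scaled signal (log axis) of all 15 gelsolin family probe sets at 0, 24 and 72 h of RANKL, 1 array per time, with the brightest probe set of each gene in red, the others in grey and the floor of 29.6 as a dashed line. Scin stands just above the floor at 0 h and far above it from 24 h, Capg climbs, both Svil probe sets drop, and the Vil1 and Avil probe sets lie below the floor throughout.

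Scin was read by 1 probe set, of the kind that matches several transcripts of 1 gene. Its scaled signal read 34.0 at 0 h, 462 at 24 h and 754 at 72 h (deposited signals 24.0, 541 and 910). The 0 h value lies just above the floor and the later ones far above it. The log2 difference was 3.76 at 24 h against 0 h (13.6-fold, technical SD 0.41) and 4.47 at 72 h against 0 h (22.2-fold, technical SD 0.49). Most of the climb thus fell in the first 24 h, since 72 h stood 0.71 above 24 h, a factor of 1.63 that did not reach 2-fold. Among genes that both arrays showed above the floor, Scin held place 6 of 7455 from the top at 24 h against 0 h. It held place 10 of 7345 at 72 h against 0 h, and place 795 of 7426 between 72 and 24 h. Genes below the floor on either array had no place. Of these, Ocstamp and Oscar were higher by at least 5.91 and 5.50 log2 units at 72 h against 0 h. The family was chosen for the climb of Scin, so its places describe it and test nothing. Because the 0 h signal of Scin was dim, the technical SD was also taken over dim genes. In these, both probe sets had a 0 h signal within 2-fold above the floor. The SD was 0.44 at 24 h (135 genes) and 0.51 at 72 h (145 genes). This choice limits how far the 0 h values can differ, so it cannot show that a dim signal has no larger error. With the floor at the 60th percentile the 0 h signal of Scin fell under it, and its differences became lower bounds of 2.32 and 3.03.

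Capg also had 1 probe set, of the same kind. Its scaled signal read 959 at 0 h, 2136 at 24 h and 3144 at 72 h, so each later array was higher than the one before. The log2 difference was 1.16 at 24 h (2.23-fold) and 1.71 at 72 h (3.28-fold) against 0 h, and 0.56 at 72 h against 24 h (1.47-fold). The first of these stood close to the 2-fold threshold and fell short of it under other scalings, at 0.94 after quantile normalization and 0.96 after 2% trimmed mean scaling. At 72 h Capg held place 299 of 7345 from the top.

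Gelsolin itself, the best known severing protein of the podosome, kept a strong signal at all 3 times. The brightest of its 6 probe sets read 2693 at 0 h, 2986 at 24 h and 2579 at 72 h, with log2 differences of 0.15 at 24 h and -0.06 at 72 h against 0 h. Both are smaller than the technical SD. Another probe set read 2250, 2150 and 2156, and a further one 1851, 1742 and 1619. These 3 probe sets thus stayed near their 0 h level. The fourth probe set read 1174 at 0 h, 1163 at 24 h and 1661 at 72 h, its highest value. The fifth stayed near the floor at 42.3, 30.8 and 46.3, and the last one lay below 1 scaled unit at each time. Over the 5 probe sets above the floor, the log2 difference ran between -0.46 and 0.15 at 24 h and between -0.19 and 0.50 at 72 h against 0 h, none reaching 2-fold. The sign of the 24 h difference by the brightest probe set turned to -0.06 after quantile normalization and -0.05 after trimmed mean scaling, and the 72 h difference was 0.71 on the deposited scale, so no direction is given for Gsn.

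Flii, which carries the gelsolin repeats behind its leucine-rich repeats, had 2 probe sets above the floor and 1 below it. The brightest read 634 at 0 h, 720 at 24 h and 804 at 72 h, and the next one 583, 672 and 721. Both read a little higher at each later time by median centring. The log2 differences by these 2 probe sets were 0.18 and 0.21 at 24 h, and 0.34 and 0.31 at 72 h, all smaller than the technical SD. At 24 h the sign by the brightest probe set depended on the scaling (-0.04 after quantile normalization, -0.01 after trimmed mean scaling). At 72 h it was 1.11 on the deposited scale, past 2-fold, and with all 3 probe sets averaged it was -0.94 at 24 h and -0.71 at 72 h, so no direction is given for Flii. The third Flii probe set read 23.6, 2.54 and 3.44, below the floor on all arrays, and gives no difference.

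Supervillin moved the other way from Scin and Capg. Its 2 probe sets read 291 and 307 at 0 h, 116 and 87.8 at 24 h, and 60.01 and 55.8 at 72 h. On both, every later array was lower than the one before, and 72 h was still above the floor. The log2 difference against 0 h was -1.33 by the brighter probe set and -1.80 by the other at 24 h, and -2.28 and -2.46 at 72 h. In folds, Svil was 2.52-fold lower at 24 h and 4.85-fold lower at 72 h by the brighter probe set. From 24 to 72 h it fell by 0.95 and by 0.65 on the log2 scale, both short of 2-fold. On the deposited scale the 24 h difference shrank to -0.60 and was no longer called, while that at 72 h was -1.51.

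Villin and advillin had 1 probe set each. Vil1 read 1.80 at 0 h, 1.39 at 24 h and 2.97 at 72 h, and Avil 8.06, 2.82 and 5.11. All 6 values lie below the floor, so no fold is given. Of 10 epithelial and brush border markers with a probe set, at or below the floor were 8 on the 0 h array and 7 on each of the later arrays, among them Epcam, Cdh1 and Espn at all 3 times. Krt8, a keratin, was at least 2.09-fold higher at 72 h than at 0 h, with 61.9 against 27.9, and Pls1, a plastin, at least 2.15-fold higher at 72 h than at 24 h, with 63.6 against 17.9. The scaled signals of the list summed to 345, 316 and 317 at 0, 24 and 72 h, of which Ezr, the membrane linker ezrin, made up 180.0, 148 and 118.

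The values of the 5 measured genes under each way of bringing the arrays to a common scale are compared in the plot of differences by scaling. The order Scin, Capg, then Gsn and Flii, then Svil held under all 5 scalings in both comparisons against 0 h, and Scin ranged between 3.57 and 4.21 at 24 h and between 4.34 and 4.96 at 72 h. The upper end of each range is a lower bound from the deposited scale, where the 0 h signal lay below the floor.

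**Figure D2:**
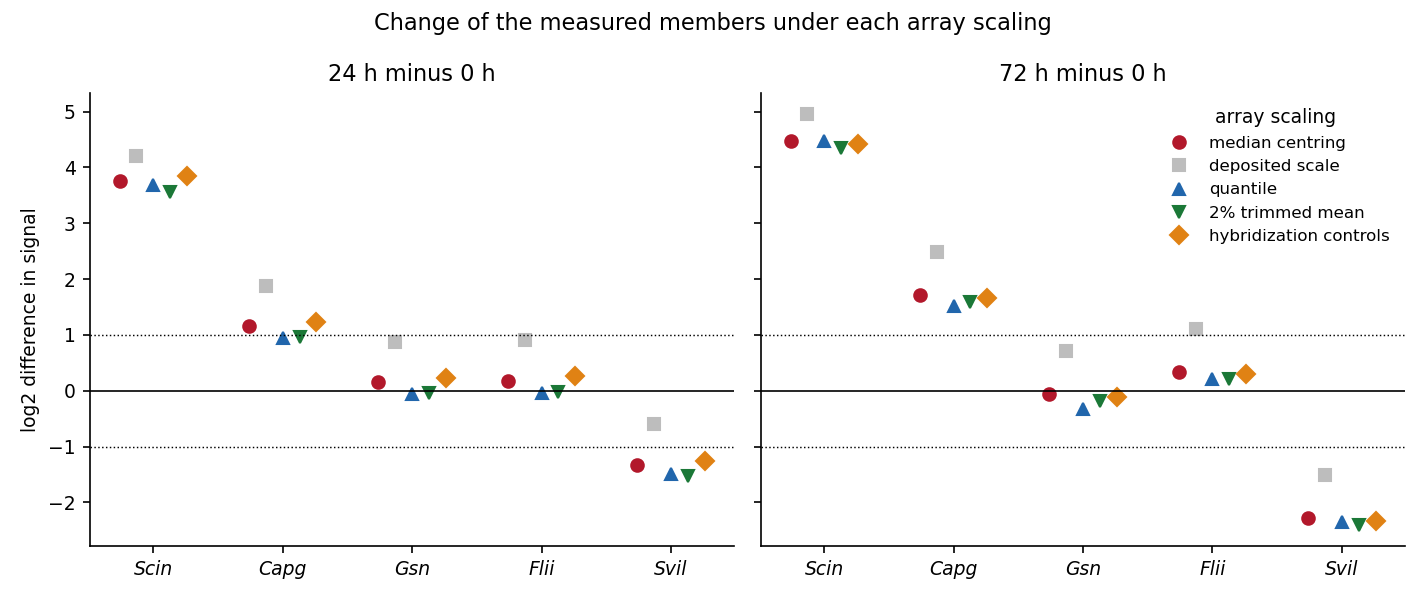
Log2 difference of the 5 measured members at 24 h (left) and 72 h (right) against 0 h under 5 array scalings, 1 array per time, with dotted lines at 2-fold. Scin stays above 3.5 and Svil below 0 under each scaling, whereas Capg at 24 h lies on either side of the upper line and Gsn and Flii on either side of 0 at 24 h.

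The genes whose course was most like that of a member were sought among 7163 other genes above the floor on all 3 arrays, by the Euclidean distance between their log2 differences at 24 and 72 h against 0 h. With 3 arrays, closeness of this kind describes 2 numbers per gene and says nothing of shared function or control. Nearest to Scin was Sdc1, a cell surface heparan sulfate proteoglycan, at a distance of 0.039, with scaled signals of 111 at 0 h, 1520 at 24 h and 2516 at 72 h. Its log2 differences were 3.78 and 4.51. Also among the 5 nearest were Cd109, a membrane-anchored glycoprotein (distance 0.76), Cyp2s1, a cytochrome P450 (0.85), and Car2, the carbonic anhydrase that feeds acid into the resorption space (0.99). Sdc1 was the single gene within 0.5 log2 units of Scin, while 200 lay that near to Capg, 1851 to Gsn, 1554 to Flii and 87 to Svil. For Capg the nearest were Pfdn1, a prefoldin subunit, and Uqcr11, a subunit of respiratory complex III (both 0.022). For Svil they were B4galt6, a galactosyltransferase (0.059), and Tmbim1 (0.072), for Gsn Enox2 (0.018) and Mob1b (0.025), and for Flii the mitochondrial carrier Slc25a26 (0.0060) and Ttc1 (0.0067).

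**Figure D3:**
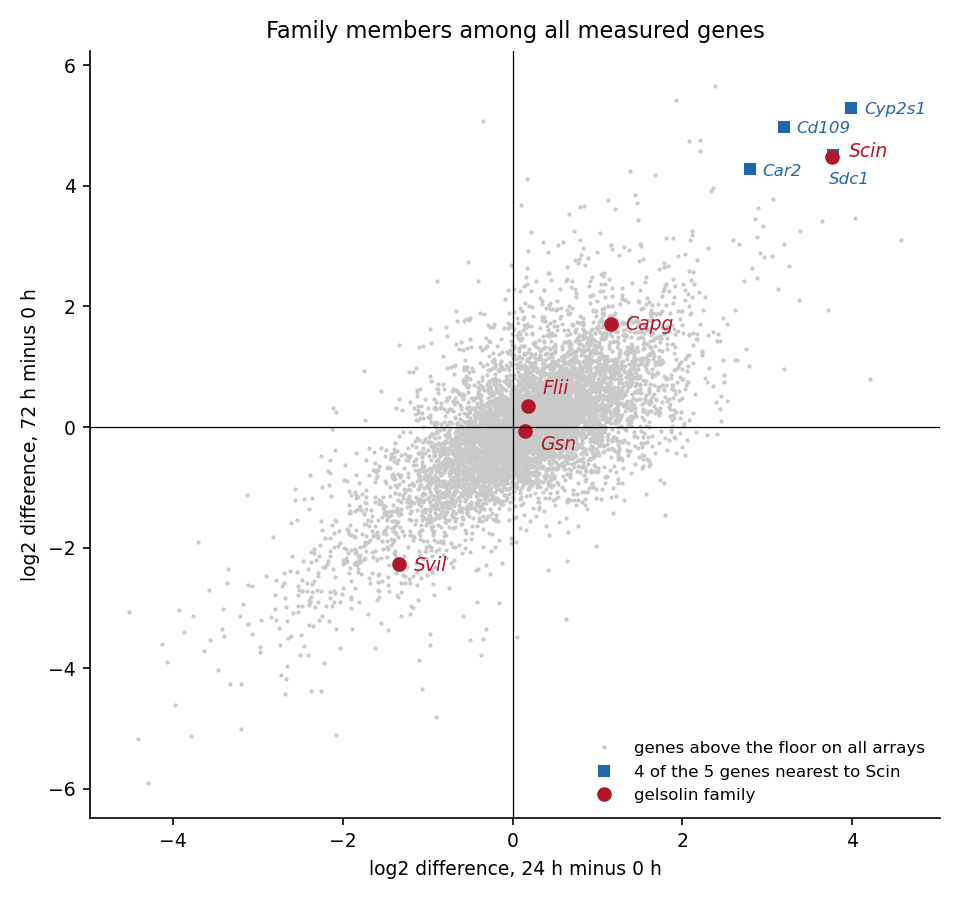
Log2 difference at 72 h against 0 h (vertical) by that at 24 h against 0 h (horizontal) for all genes above the floor on all 3 arrays (grey), the 5 measured family members (red) and 4 of the 5 genes nearest to Scin (blue). Scin sits at 3.76 and 4.47 beside Sdc1 in a sparse corner, Gsn and Flii in the dense centre, and Svil at -1.33 and -2.28.

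Actin filaments are also severed and capped by proteins outside the family, and their called shares are set beside those of all genes given above. Of 18 genes for severing, depolymerisation and monomer recycling with a probe set, 16 were measured at 24 h against 0 h, with 0 higher and 1 lower. That gene was Cotl1, a coactosin-like actin-binding protein, 3.16-fold lower with scaled signals of 823 at 24 h and 2603 at 0 h. By 72 h, 2 of 17 were higher than at 0 h and 3 lower, near the 12.5% and 12.8% over all genes. Cfl2, muscle cofilin, was 4.18-fold higher with signals of 431 at 72 h and 103 at 0 h, and Dstn, the depolymerising factor destrin, 2.86-fold with 1858 and 650. Coro1a, the coronin of blood cells, was 12.3-fold lower with 216 at 72 h and 2643 at 0 h, and Limk1, the kinase that inactivates cofilin, dropped below the floor, at least 3.10-fold lower. Between 72 and 24 h Cfl2 was 3.07-fold higher, Coro1a 6.25-fold lower and Limk1 at least 2.44-fold lower, and the other 14 of 17 were within 2-fold. The list's median log2 difference was -0.17 at 24 h and -0.0021 at 72 h against 0 h, and -0.06 at 72 h against 24 h, beside 0.12, -0.01 and -0.14 over all genes. On the deposited scale the first 2 turned to 0.56 and 0.65.

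Among 14 genes for capping filament ends, 11 were measured at 24 h against 0 h, with 1 higher and 0 lower. Carmil1, a regulator of capping protein, was at least 2.51-fold higher, from below the floor at 0 h to a signal of 74.1. By 72 h 0 of 11 were higher than at 0 h and 1 lower, and at 72 h against 24 h 0 of 10 were higher and 1 lower. That gene was Add3, the gamma adducin of the membrane skeleton, with signals of 199 at 0 h, 183 at 24 h and 41.8 at 72 h. It was 4.77-fold lower at 72 h than at 0 h and 4.37-fold lower than at 24 h. The list's medians were 0.02, -0.14 and -0.30 for the 3 comparisons in the same order, with 0.56 for the middle one on the deposited scale.

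**Figure D4:**
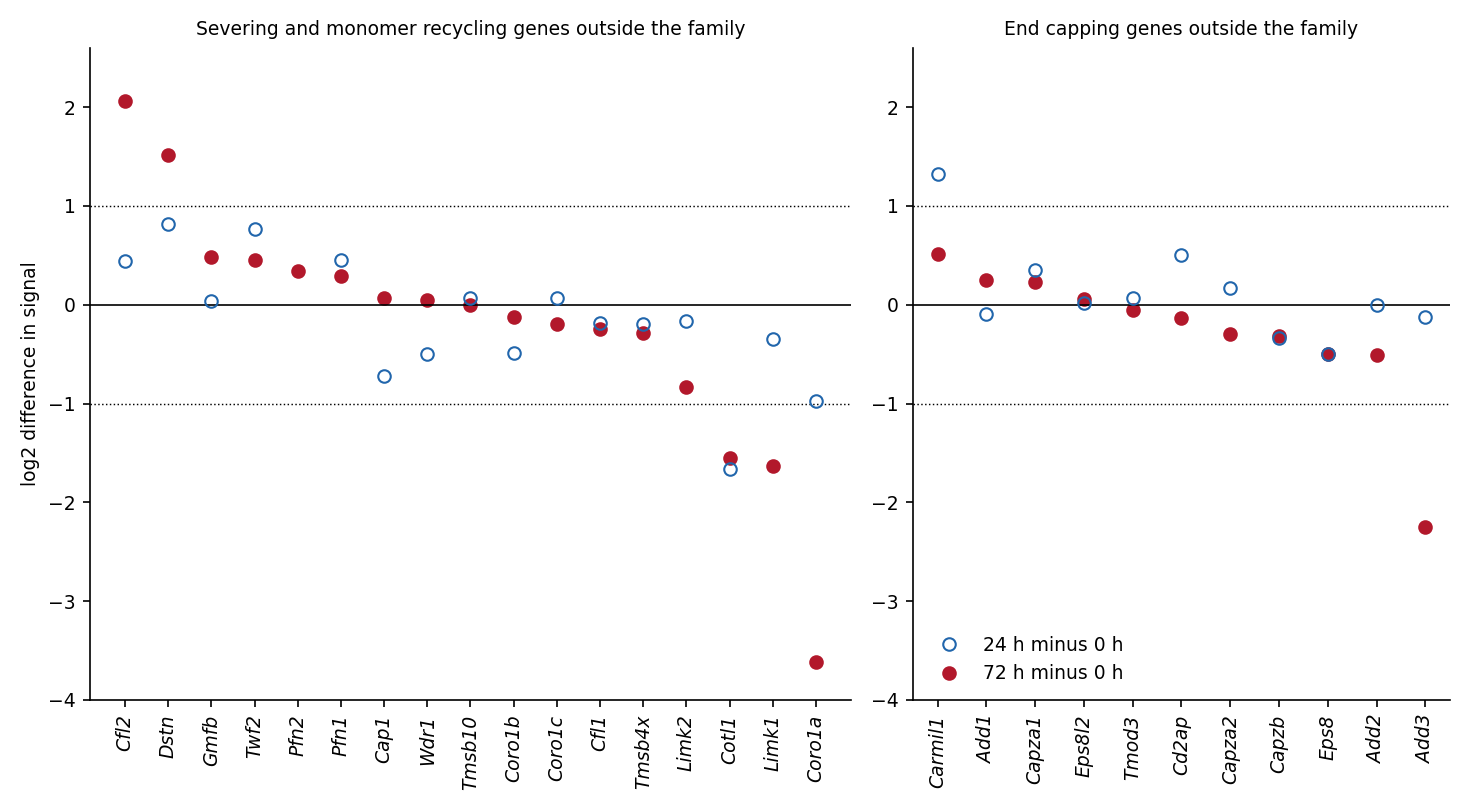
Log2 difference against 0 h of actin severing and recycling genes (left) and end capping genes (right) outside the gelsolin family, at 24 h (open blue) and 72 h (filled red), 1 array per time, with dotted lines at 2-fold. Most genes lie between the dotted lines, with Cfl2 and Dstn above and Coro1a, Limk1, Cotl1 and Add3 below them at 72 h.

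PIP2, the lipid that releases gelsolin proteins from actin, is made and used by phosphoinositide enzymes, and 13 of 15 with a probe set were measured. At 24 h against 0 h 0 were higher and 2 lower, beside 13.2% and 9.22% over all genes. These were Pik3cd, the PI3-kinase delta subunit of blood cells (3.73-fold, signals of 194 at 24 h and 723 at 0 h), and Pip4k2a, a PIP2-forming kinase (2.13-fold, 370 and 787). By 72 h 2 were higher than at 0 h and 3 lower, beside 12.5% and 12.8% over all genes. Pip5k1b, a kinase that makes PIP2, was 8.60-fold higher with 290.5 at 72 h and 33.8 at 0 h, close to the floor, and its relative Pip5k1c 2.83-fold with 1088 and 384. Pik3cd was 7.20-fold and Inpp5d, the lipid phosphatase SHIP1, 3.11-fold lower. At 72 h against 24 h Pip5k1b was 4.95-fold higher and 0 genes were lower, beside 6.92% higher and 10.0% lower over all genes. The list's medians were -0.43, -0.36 and -0.04 in the same order of comparisons, and above 0 on the deposited scale for the first 2 (0.30 and 0.41).

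Of 5 binding partners of flightless I and supervillin, Trip6, an adhesion adaptor that binds supervillin, was higher at both times, with signals of 75.9 at 0 h, 294 at 24 h and 287 at 72 h (3.87-fold and 3.77-fold). Myd88, the Toll-like receptor adaptor that flightless I binds, was 3.18-fold lower at 72 h with 220, against 698 at 0 h. The other 3 partners were within 2-fold in both comparisons, and 0 of 5 were called between 72 and 24 h. Counts over so few genes stand beside the shares over all genes given above. The list's medians were 0.48, -0.13 and -0.56, with 0.65 for the middle one on the deposited scale. Over the 4 actin and partner lists, the scaling check took up to 2 called genes each way per list and comparison, 21 values. Of these, 16 were called under all 4 other scalings too. The other 5 (Cotl1 and Pip4k2a at 24 h, Limk1, Inpp5d and Myd88 at 72 h, against 0 h) lost the call on the deposited scale. Cotl1 (-1.56) and Plcg2 (-1.04), also called lower at 72 h against 0 h, were left out of this check. The sign turned in 0 of the 21.

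These are bulk cultures, so more cells of a type and more RNA per cell cannot be told apart, and marker lists changed alongside the members. Over all measured genes, 13.2% were higher and 9.22% lower at 24 h against 0 h, and 12.5% and 12.8% at 72 h. Osteoclast markers were higher in 7 of 11 at 24 h and in 12 of 12 at 72 h against 0 h, with 0 lower, and their summed scaled signal reached 3416 at 0 h, 10483 at 24 h and 38375 at 72 h. Between 72 and 24 h 10 of 12 were higher, where Scin and Capg were not called. Macrophage markers, whose sum was 37954, 12997 and 17398 at 0, 24 and 72 h, were lower in 12 of 15 at each time against 0 h, with 1 higher at 72 h. Among 9 megakaryocyte and platelet markers 8 were lower at both times, and 1 was higher at 72 h, Itgb3, which osteoclasts carry too. Without Itgb3 the other 8 summed to 9489, 1919.7 and 935 at 0, 24 and 72 h. Neutrophil and precursor markers were lower in 3 of 11 at 24 h and in 11 of 11 at 72 h (sums 19198, 13207 and 1389). At 24 h Prtn3, among the lower ones, was at -1.42 in log2 units and at -0.69 on the deposited scale, short of 2-fold. The list's median at 24 h was -0.50, and 0.23 on the deposited scale. Stromal and osteoblast markers were higher in 1 of 10 at 24 h and in 5 of 12 at 72 h, where 1 was lower (sums 3173, 3576 and 10563). The lower gene, Dcn, was at -1.48 in log2 units, and at -0.71 on the deposited scale, short of 2-fold. The gene called at 24 h was Postn, at 1.14 in log2 units. It fell short of 2-fold after quantile normalization (0.98) and trimmed mean scaling (0.94). Smooth muscle type contractile markers were higher in 0 of 4 at 24 h and in 5 of 5 at 72 h (sums 1359, 1258 and 6751), with Myh11, Des and Lmod1 below the floor throughout. Of 10 mast cell and basophil markers 8 were below the floor at each time, and 1 was called, the basophil protease Mcpt8, at least 2.97-fold higher at 72 h than at 0 h with 87.7 against 4.01. Below the floor were also 4, 5 and 6 of 7 B cell markers and 6, 7 and 7 of 7 T and NK cell markers at 0, 24 and 72 h. Against 0 h, Blnk was lower at 72 h (log2 difference -1.02) and Cd4 at both times (by at least 1.03). On the deposited scale these came to -0.25 for Blnk and -0.54 for Cd4, short of 2-fold. The part of these cell types in the values of the members was not tested.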

How the data were processed

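Gene expression was measured on 3 Affymetrix arrays, 1 each for 0, 24 and 72 h of RANKL. The deposited values are linear MAS5 intensity values, per the submitters' processing notes. The MAS5 version, array scaling and genome build are not given in the sources used here. Of 22690 probe sets, 64 were controls. Gene symbols came from the platform annotation of 2016, which left 691 probe sets with several symbols and 1555 without any. Of the 20380 with 1 symbol, 20351 matched a RefSeq gene ID.

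Log2 values were centred on each array's median gene probe set, floored at the 40th percentile and differenced by the brightest single-symbol probe set of each gene (Python 3.11.15, pandas 2.3.3, numpy 2.4.6). A call is a 2-fold difference. The steps were tested on simulated data with changes planted only in genes far above the floor. A gene as dim at 0 h as Scin was not covered. Named genes were the members, up to 2 called genes each way per list and comparison, and the genes with the nearest course (5 for Scin, of which 1 is not reported here, and 2 for each other member). Members, lists and the centring were chosen with earlier results of these data known, and the 6 promoter motifs after the values were seen. The 9 alternatives were 4 other scalings, 3 other floors and 2 other ways of handling probe sets. Promoter sequences are RefSeq's (GRCm38.p6).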

Additional observations from a re-analysis of the deposited data

How the results depend on the processing

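No paired analysis was possible because each time had 1 array. No array could be left out of a comparison for the same reason. Across 9 alternatives, 129 values of the 5 measured members were compared, 0 of the called ones changed sign, and 5 crossed the 2-fold threshold. Those were Capg at 24 h against 0 h after quantile normalization (0.94) and trimmed mean scaling (0.96), which left 1 member higher there under each. Svil at 24 h was -0.60 on the deposited scale, leaving 0 members lower, and Svil at 72 h against 24 h was -1.08 with hybridization control scaling, making 1 lower. Flii was 1.11 at 72 h on the deposited scale. That scale, which leaves in the shift between arrays, also gave log2 differences against 0 h of at least 4.21 (Scin), 0.88 (Gsn), 1.88 (Capg) and 0.91 (Flii) at 24 h, and 0.71 (Gsn), 2.48 (Capg) and -1.51 (Svil) at 72 h. With the floor at the 60th percentile, Scin differed by at least 2.32 at 24 h and 3.03 at 72 h, and Svil had values of -1.66 at 72 h against 0 h and -0.32 against 24 h, because the dim value was raised to the floor. With probe sets averaged, the mean of the 3 Flii probe sets, 1 of them below the floor, differed by -0.94 at 24 h and -0.71 at 72 h against 0 h, and Gsn was 0.17 at 72 h against 24 h. The setting without multi-transcript probe sets dropped every probe set whose name ends in _a_at, _s_at or _x_at. Scin and Capg had none left, so 0 members were higher at 24 h or at 72 h against 0 h. It also dropped the dimmer Svil probe set and the brightest Gsn probe set. Gsn was then read by the probe set next in brightness, at -0.07 at 24 h and -0.06 at 72 h against 0 h. With no floor, 2 members were lower at 24 h and 1 higher at 72 h against 24 h, since Avil and Vil1 values below the floor then counted.

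Counts over all genes moved more. Against 0 h the deposited scale gave 3302 higher and 314 lower at 24 h (1112 and 778 by median centring) and 2985 and 455 at 72 h (1068 and 1095). The share of calls that were higher at 24 h was 58.8% by median centring, 91.3% on the deposited scale, 46.9% after quantile normalization and 42.2% after trimmed mean scaling. At 72 h against 0 h it was 49.4%, and 86.8% on the deposited scale. At 72 h against 24 h it was 40.9%, and 30.8% with hybridization control scaling. The floor at the 20th percentile gave 1307 lower at 24 h and 1659 lower at 72 h against 0 h, and 981 higher and 1267 lower at 72 h against 24 h. No floor gave 2017 higher and 1887 lower, 1983 and 2283, and 1486 and 1896 in the 3 comparisons. The floor at the 60th percentile gave 712 lower at 72 h against 0 h and 364 higher at 72 h against 24 h. The dim 0 h signal of Scin limits how precisely its fold is known.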
